A study of Macaca fascicularis with 23 samples.

Results

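Naïve-like and primed pluripotent stem cells (PSCs) of the cynomolgus monkey (Cm, Macaca fascicularis) were compared line by line in 14 of the 23 libraries of the series, 7 of each state. The 7 lines were chosen by their labels alone, and each line gave 1 primed and 1 naïve-like library. CMK6, TRSK and CMK9 were embryonic stem cell (ESC) lines. The induced PSC (iPSC) lines iPS-L3 and iPS-L6 came from the liver, and iPS-S6 together with iPS-S12 from the stomach, of a single female foetus, and were made with episomal vectors for OCT3/4, SOX2, KLF4, LIN28 and L-MYC and a short hairpin RNA against p53. The 4 iPSC lines therefore share 1 animal, and p-values over the 7 lines measure the spread between lines of which 4 have a common donor. The paper still found the vector for OCT3/4 and the p53 hairpin in iPS-L3, iPS-L6 and a stomach line. That line is iPS-S6 in its main text and iPS-S12 in a supplementary legend. It also reports lasting expression of exogenous OCT3/4 in iPS-L3 and iPS-S6.

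Primed cells grew in bFGF/KSR medium. K5cLD medium, used for naïve-like cells, holds human LIF, forskolin (which raises cAMP), the PKC inhibitor Gö6983, kenpaullone and CHIR99021 (both inhibitors of GSK3), the BRAF inhibitor SB590885 and doxycycline (Dox). Dox switched on human KLF2 and NANOG transgenes carried on PiggyBac vectors, and these cells also carried an EOS reporter that gives GFP and puromycin resistance. ESC transfectants with a mitochondrial DsRed reporter were made as well, and the labels do not say whether any library came from them. Medium, Dox, transgenes and selection thus all changed together between the 2 states, and their parts cannot be told apart. Cells of both states were grown without feeder cells, on laminin-511, before RNA was taken.

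Naïve and primed pluripotency are 2 states of the epiblast lineage. The naïve state is that of the epiblast before implantation, and in the mouse it depends on LIF and is held by inhibiting ERK and GSK3. The primed state is that of the epiblast after implantation, depends on FGF and Activin/Nodal signals, and shows early expression of lineage genes. Primed PSCs draw mainly on glycolysis, whereas naïve PSCs also use mitochondrial respiration.

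Expression was measured by SC3-seq, a method that amplifies cDNA and sequences it at its 3′ end, and was deposited as RPM (the reads of a gene scaled to a fixed total for each library). The analysed part of the table held 8415 genes and 24.8% to 26.8% of the RPM of each of the 14 libraries, and 5551 of the 5564 genes that matched the RefSeq annotation lie on chromosomes 1 to 5. The primed libraries held 861000 to 7986000 reads (median 3250000) and the naïve-like libraries 902000 to 5619000 (median 2648000), as judged from the smallest step between RPM values. A level of 3 reads lay between 0.376 and 3.49 RPM, and lower levels were read as not detectable. This floor covers counting error only. KLF2, NANOG, KLF4 and the reporters were not analysed here, so the transgenes could not be checked. The libraries were numbered by state, so a preparation batch and the state cannot be told apart. Among the genes named below, some of them picked for a change in 1 line, the primed CMK9 and naïve-like CMK6 libraries stood apart most often. Counts without both lines are given below.

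All 14 libraries held pluripotency transcripts. POU5F1 (OCT3/4), a core pluripotency factor, had 32.8, 238 and 427 RPM (lowest, median and highest) in primed and 137, 289 and 575 RPM in naïve-like libraries, against 0 in both somatic cultures. SOX2, its partner, had 277, 449 and 528 RPM in primed and 160, 470 and 521 RPM in naïve-like libraries. The states overlapped for both genes, and neither passed the test (log2 change 0.50 ± 0.35 SE and -0.06 ± 0.22, adjusted p = 0.327 and 0.863). In the analysed part of the table the naïve label was less evident. Only 10 of 32 listed markers of the naïve and pre-implantation epiblast were in it. Of these 10, KLF17 and ARGFX were listed at 0 in all 14 libraries, and 5 reached the level needed for testing. Among these 5, only DPPA2 passed the test, a rise (20% higher, against 11.5% of all genes). By other measures, the paper reports weak KLF17 staining in naïve-like CMK6. Its RT-qPCR showed rises of DNMT3L in CMK6 and of DPPA5 in CMK6 and in iPSCs.

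About 1 in 5 of the genes tested differed between the states. A gene was tested when log2(RPM + 1) was above 4 in at least 1 of the 14 libraries, which held for 2691 genes. With limma, the line as a block and a Benjamini-Hochberg adjusted p under 0.05, 571 genes (21.2%) differed, of which 309 (11.5%) were higher and 262 (9.74%) lower in naïve-like cells. Falls were deeper than rises. The median change was -0.99 among the genes that fell and 0.71 among those that rose, against 0.06 over all genes (quartiles -0.25 and 0.35), and 215 called genes (7.99% of those tested) changed by 1 or more on the log2 scale, 129 of them down and 86 up. The excess of rises over falls in number depended on scaling, since 263 genes rose and 307 fell once each library was centred on its median. Of the 571 genes, 359 (13.3% of those tested) moved the same way in all 7 lines, 219 up and 140 down. Called or not, 443 genes (16.5%) moved 1 way in all 7 lines, 270 (10.0%) up and 173 (6.43%) down. In 113 genes (4.2% of those tested) the 2 states did not overlap, with the naïve-like libraries above in 67 (2.49%) and below in 46 (1.71%).

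**Figure D1:**
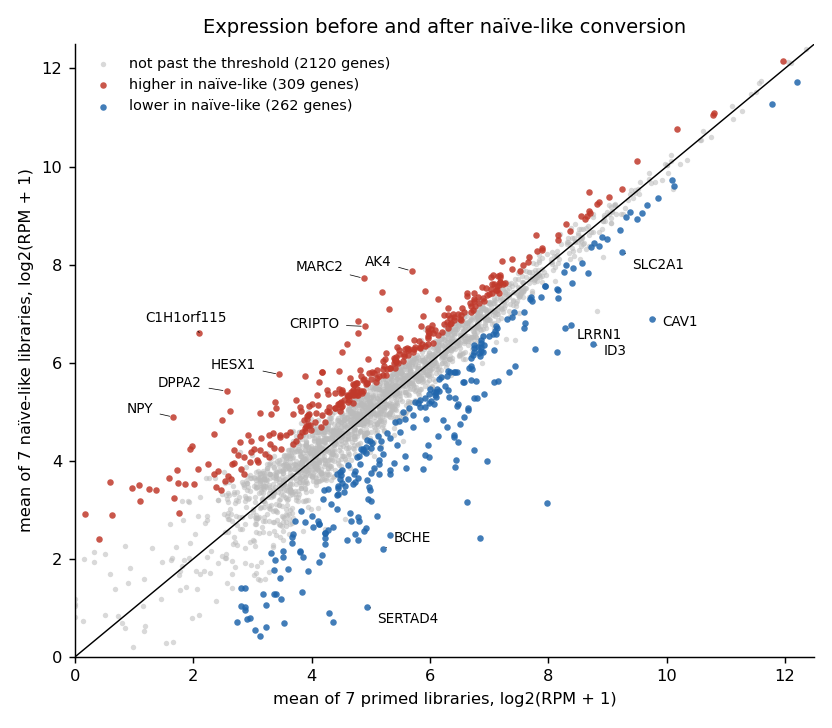
Mean log2(RPM + 1) of the 7 naïve-like libraries against that of the 7 primed libraries for the 2691 genes tested, 1 point per gene, with the 309 genes that rose in red, the 262 that fell in blue and equality as a line. The blue points reach farther from the line than the red ones, and SERTAD4 and CAV1 lie far below it.

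Among general pluripotency genes, a few rose steeply while the core factors did not pass the test. Of 11 tested genes of this group 4 rose and 0 fell (36.4% higher, against 11.5% of all genes). The median change was 0.41 against 0.06 over all genes, and the count of 4 held with any 1 line left out. HESX1, a homeobox repressor, had 3.99, 13.2 and 16.5 RPM in primed and 28.5, 58.2 and 88.3 RPM in naïve-like libraries. Every naïve-like library stood above every primed one, a change of 2.31 ± 0.19 (adjusted p = 2.61e-05). DPPA2, which keeps developmental promoters open in PSCs, had 0.651, 3.49 and 20.9 RPM in primed and 10.9, 40.6 and 135 RPM in naïve-like libraries. It rose in every line (2.86 ± 0.52, adjusted p = 0.0036), and the low primed values were those of the iPSC lines, where 4 of 4 primed libraries were at 3.49 RPM or below. Of these, iPS-S6 and iPS-S12 (0.651 and 0.664 RPM) lay below the floor of 3 reads, and iPS-L6 lay at it. CRIPTO, the Nodal co-receptor, had 5.76, 33.2 and 83.7 RPM before and 89.1, 104.5 and 126 RPM after conversion (1.83 ± 0.40, adjusted p = 0.00841). Its naïve-like values lay close together, whereas the primed ones were widely spread. LIN28A, an inhibitor of let-7 maturation, rose by less (0.62 ± 0.14, adjusted p = 0.0112), from a median of 774 to 1156 RPM, in 6 of 7 lines. MYCL (L-MYC), itself one of the reprogramming factors, had a median of 14.4 RPM before and 14.8 after (0.10 ± 0.34, adjusted p = 0.861).

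Genes of the naïve and the post-implantation epiblast were few in the table. The naïve markers DPPA5 and KHDC3L reached 31.9 RPM each in naïve-like CMK6, and elsewhere neither exceeded 2.59 RPM, a value of 3 reads in naïve-like CMK9. Of 5 tested genes of the primed group 2 fell (40% lower, against 9.74% of all genes). SERTAD4 had 4.26, 39.7 and 49.6 RPM in primed and 0, 0.378 and 4.93 RPM in naïve-like libraries (-3.91 ± 0.56, adjusted p = 0.000789). Only the primed CMK9 library lay within the naïve-like range. CYTL1, a secreted protein, fell in every line (-1.56 ± 0.27, adjusted p = 0.00262), from a median of 101 to 47.6 RPM.

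**Figure D2:**
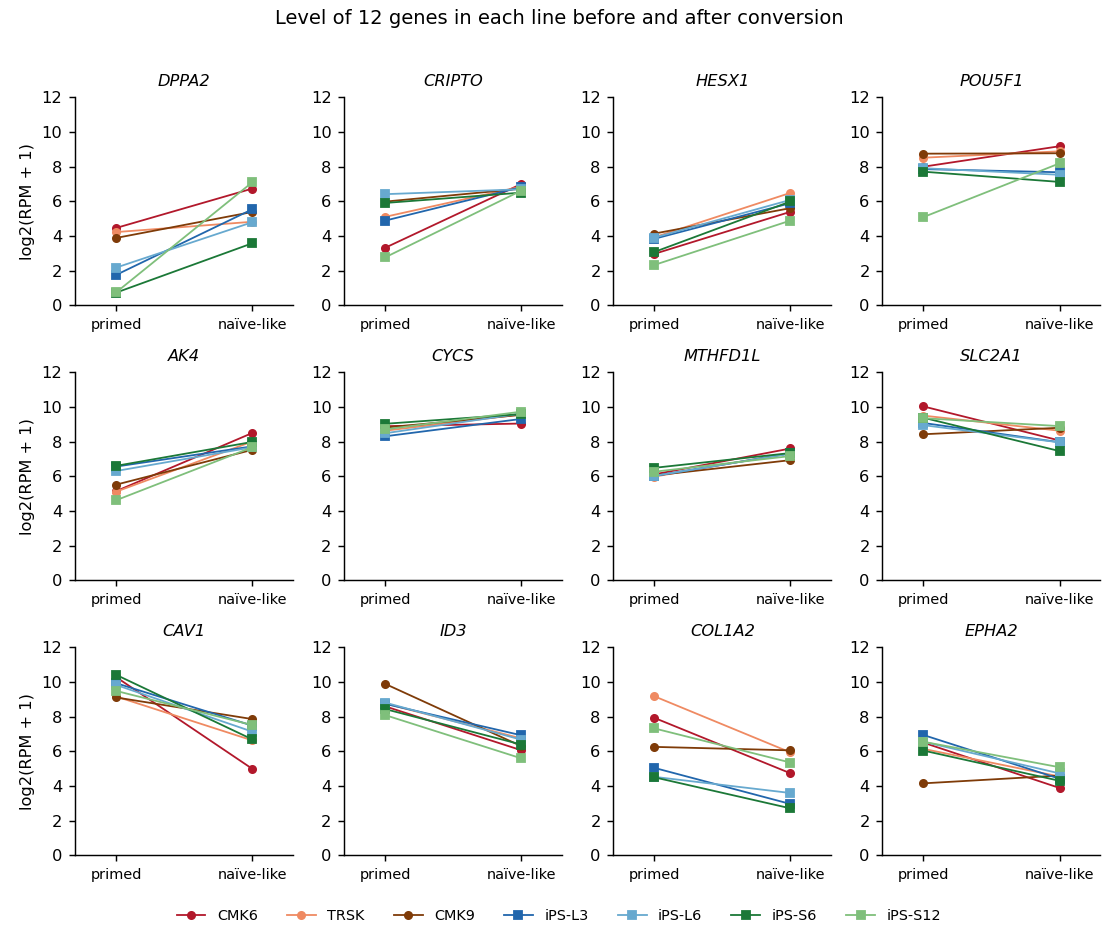
Level of 12 genes in log2(RPM + 1) in the primed (left) and naïve-like (right) library of each line, joined by a line, with ESC lines as circles and iPSC lines as squares. HESX1, AK4, CYCS and MTHFD1L rose in all 7 lines, CAV1 and ID3 fell in all 7, and EPHA2 was lower after conversion in 6 lines but stood at 16.8 and 23.3 RPM in CMK9.

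The largest rises shared by all 7 lines were in a mixed set of genes. C1H1orf115 came first (4.51 ± 0.37, adjusted p = 2.61e-05), from 0, 5.21 and 9.11 RPM to 64.8, 92.9 and 155 RPM. Ion and metabolite handling was represented by SLC4A4, a sodium bicarbonate cotransporter (2.98 ± 0.37), which was at 1.23 RPM or below in every primed library and between 4.93 and 17.3 RPM in every naïve-like one. Mitochondrial enzymes were among them too. MARC2, a reductase of the outer mitochondrial membrane, went from 10.6, 27.9 and 49.8 RPM to 78.8, 184 and 385 RPM (2.85 ± 0.33, adjusted p = 0.000214). AK4, an adenylate kinase of the mitochondrial matrix, went from 23.5, 44.7 and 96.0 RPM to 183, 210.5 and 360.1 RPM (2.18 ± 0.26, adjusted p = 0.000275). Neither gene's states overlapped.

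TXNIP, an inhibitor of glucose uptake, rose in every line (2.34 ± 0.34, adjusted p = 0.000982), but in CMK9 only from 26.3 to 27.6 RPM. Primed CMK9 was the only primed library above 7.38 RPM for this gene. Among transcription factors KLF15 (2.47 ± 0.44) and SP8, a Wnt-responsive zinc finger factor (2.18 ± 0.36), rose from medians of 0.588 and 3.69 RPM to 9.35 and 31.3 RPM. ELF3, an ETS factor of epithelia, rose by 2.43 ± 0.68 (adjusted p = 0.0248) with a wide spread, since naïve-like CMK6 and iPS-S12 had 81.7 and 57.0 RPM and the other naïve-like libraries 1.46 to 9.47 RPM. The other genes of the 15 largest rises were NPY, SMOC2, TMPRSS2, AIM1 and SH3BGRL2, with changes of 2.25 to 3.23. Primed levels of NPY, SMOC2 and AIM1 were at 0 in 3, 5 and 4 of 7 libraries, so their fold changes rest on values near the floor. KLF15, ELF3 and SLC4A4, at 0 in 3, 2 and 2 of 7 primed libraries, share this limit.

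**Figure D3:**
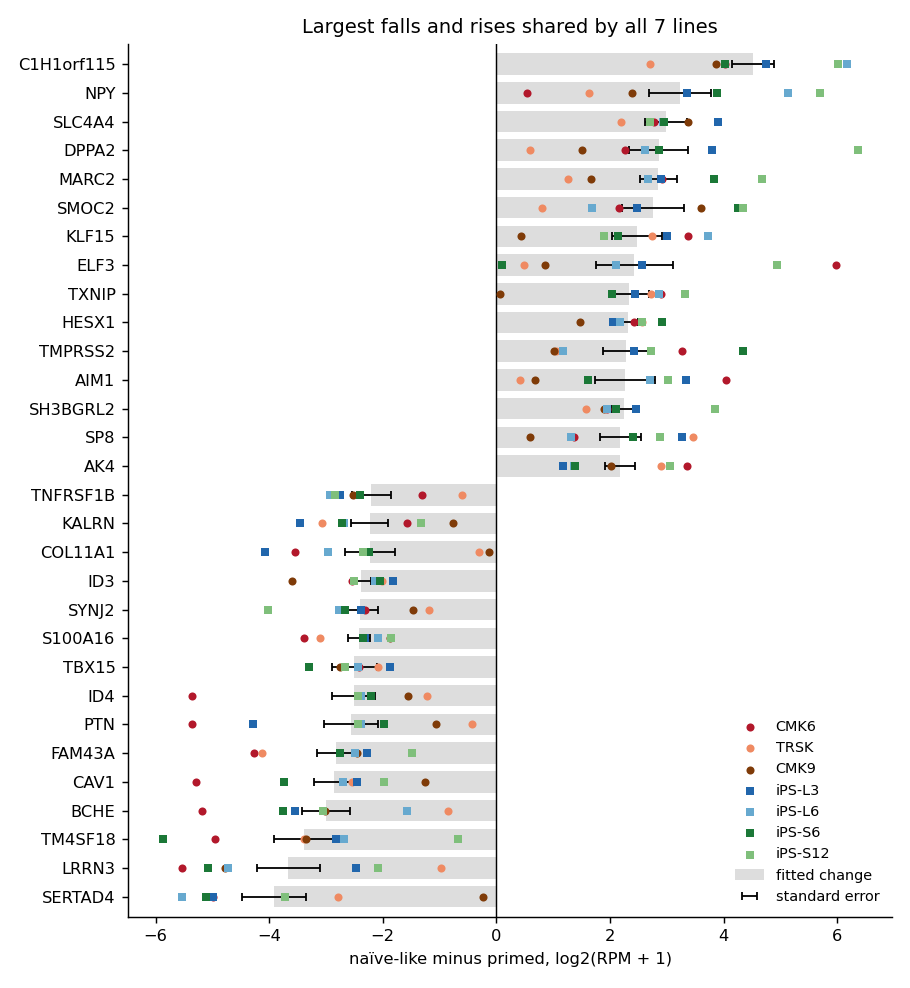
Change from primed to naïve-like in log2(RPM + 1) for the 15 largest rises and 15 largest falls shared by all 7 lines, with the fitted change as a bar, its standard error as a black line and each cell line as a point. In most of the falling genes the CMK9 or TRSK point lies nearest to 0.

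Of 25 tested genes of the mitochondrial ribosome 10 rose and 0 fell (40.0% higher, against 11.5% of all genes). The other 15 did not pass, 22 of 25 had a positive change, and the median was 0.34. MRPS22 went from 42, 59.3 and 68.3 RPM to 78.4, 110.5 and 136 RPM (0.90 ± 0.14, adjusted p = 0.0011), with every naïve-like library above every primed one. MRPL2 (0.70 ± 0.13), MRPL32 (0.57 ± 0.10) and MRPL55 (0.63 ± 0.12) also rose in all 7 lines. The summed RPM of the group was 2586 to 3373 in primed and 3447 to 3641 in naïve-like libraries, without overlap. The median of this group stayed above that of all genes when libraries were scaled by quantiles or centred (0.34 and 0.29), and 7 to 13 members rose with 1 line left out.

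The respiratory chain genes in the analysed part of the table changed less. Of 21 tested genes of the chain and ATP synthase 3 rose and 0 fell, a share of 14.3% beside the 11.5% of all genes, with a median change of 0.14. CYCS (cytochrome c) carried the clearest change. It had 315, 416 and 520.5 RPM in primed and 526, 758 and 847 RPM in naïve-like libraries (0.79 ± 0.11, adjusted p = 0.000789), with no overlap. NDUFB5 and NDUFA5, subunits of complex I, rose by 0.32 ± 0.08 and 0.34 ± 0.11, and the call of NDUFA5 was lost under 13 of 17 alternatives.

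In glycolysis the glucose transporter and a control enzyme fell, whereas the other 3 tested genes did not pass. SLC2A1 (GLUT1) had 342, 651 and 1045 RPM in primed and 174, 266 and 474 RPM in naïve-like libraries (-0.99 ± 0.23, adjusted p = 0.0106), and fell in 6 of 7 lines, the other being CMK9. PFKL, a phosphofructokinase, fell in all 7 (-0.78 ± 0.15, adjusted p = 0.00436). ENO1 (enolase) had values between 848 and 1168 RPM in all 14 libraries, and its change was 0.04 ± 0.08 (adjusted p = 0.747). SLC16A1 and PFKFB4 did not pass either. Of 5 tested genes 2 fell (40%, against 9.74% of all genes) and 0 rose, and 3 had a positive change. The group's median was 0.04 against 0.06 over all genes.

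One-carbon metabolism and fatty acid elongation each gave clear single genes. MTHFD1L, which makes formate in mitochondria, had 62.0, 65.1 and 88.6 RPM in primed and 121, 159 and 193 RPM in naïve-like libraries (1.16 ± 0.12, adjusted p = 1e-04). AMT, of the mitochondrial glycine cleavage system, rose by 1.00 ± 0.30 (adjusted p = 0.0341), a call lost under 8 of 17 alternatives. These were the 2 of 9 tested genes of the group that passed (22.2% higher, against 11.5% of all genes). ELOVL5 rose (0.83 ± 0.11, adjusted p = 0.000682) and ELOVL2 fell (-1.93 ± 0.33, adjusted p = 0.00234), both elongases of polyunsaturated fatty acids and both without overlap between states. The 6 other tested genes of cholesterol and fatty acid synthesis did not pass. Of 19 cytosolic ribosomal protein genes 3 rose (RPSA 0.30, RPL29 0.29 and RPS18 0.19), a share of 15.8% beside the 11.5% of all genes, with a median of 0.14. That count was 6 under quantile scaling and 1 under median centring, and the calls of RPS18 and RPL29 were lost under 12 and 7 of 17 alternatives.

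Many extracellular matrix genes fell. Of 16 tested genes of collagens, laminins and related matrix proteins 8 fell and 0 rose (50% lower, against 9.74% of all genes), 15 of 16 had a negative change, and the median was -0.92. COL1A2, of fibrillar collagen I, had 243.7, 579, 75.5, 32.1, 22.1, 21.7 and 159 RPM in the primed libraries of CMK6, TRSK and CMK9 and then of iPS-L3, L6, S6 and S12. The naïve-like libraries, in the same order, had 25.6, 60.3, 65.6, 6.80, 11.1, 5.55 and 39.9 RPM. It fell in every line, least in CMK9 (-1.92 ± 0.32, adjusted p = 0.0021). COL6A1 (-2.06 ± 0.46), COL11A1 (-2.23 ± 0.44) and NID1, a basement membrane linker (-1.33 ± 0.26), fell as well.

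Several of these genes are also abundant in fibroblasts. COL1A2 stood at 4832.5 and 4506.5 RPM in the somatic liver and stomach cultures. The summed RPM of the 8 fibroblast markers in the table was 101 to 667 in primed and 34.4 to 182 in naïve-like libraries. Of the 4 that were tested 2, COL1A2 and COL6A1, fell. PRRX1, a defining fibroblast factor, was at 0 in 9 of the 14 libraries and reached at most 7.97 RPM, in primed iPS-S12. TWIST1, another, was higher after conversion in 6 of 7 lines, with 2.32 to 13 RPM in primed and up to 39.9 RPM in naïve-like libraries, and did not pass (1.38 ± 0.60, adjusted p = 0.12). In bulk RNA, fewer cells of a type and less RNA per cell cannot be told apart, and the part of such cells in the fall of matrix genes was not tested.

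Caveolar and actin-linked genes fell with the matrix. Of 17 tested genes of the cytoskeleton group 7 fell and 1 rose (41.2% lower, against 9.74% of all genes), with a median of -0.58. CAV1, the main coat protein of caveolae, had 551, 911 and 1365 RPM in primed and 30.8, 140 and 231 RPM in naïve-like libraries. The states did not overlap (-2.85 ± 0.36, adjusted p = 0.000357). CAV2, its partner, fell in 6 of 7 lines (-1.77 ± 0.33), and FBLIM1, an adaptor at cell-matrix adhesions, fell in all 7 from a median of 273 to 69.9 RPM (-1.94 ± 0.17, adjusted p = 2.61e-05). TM4SF18, a tetraspan membrane protein, fell by 3.39 on the log2 scale, to 4.43 RPM or below. S100A16, a calcium-binding protein outside this group, fell from 40.7, 82.5 and 287 RPM to 8.87, 15.5 and 32.6 RPM (-2.42 ± 0.20, adjusted p = 2.61e-05). The gene of the group that rose was ACTA1, an actin of skeletal muscle (1.54 ± 0.31, adjusted p = 0.0055), in 6 of 7 lines.

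Junction genes of epithelia gave no common direction. Of 13 tested genes PROM1, an apical membrane protein, rose (0.94 ± 0.23), and CLDN4, GJA1 and PVRL3 fell (-1.59 ± 0.45, -0.52 ± 0.12 and -0.65 ± 0.19). These shares were 7.69% higher and 23.1% lower, against 11.5% and 9.74% of all genes. The median change was 0.07, with 8 genes positive and 5 negative. The call of PVRL3 was lost under 8 of 17 alternatives. Of the 3 tested genes of mesenchymal transition 0 passed by limma (2 at an unadjusted p under 0.05), and with CMK6 and CMK9 left out 1 rose and 1 fell.

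Guidance receptors and neuronal adhesion genes formed another group of falls. Of 23 tested genes for axon guidance, Eph signalling and synaptic adhesion 12 fell and 2 rose (52.2% lower, against 9.74% of all genes), with a median of -0.85. LRRN3 and LRRN1, leucine-rich repeat neuronal membrane proteins, fell in every line (-3.66 ± 0.55 and -1.58 ± 0.29). LRRN3 had 3.99, 25.6 and 49.8 RPM in primed and 0, 0.292 and 2.65 RPM in naïve-like libraries, so most of its naïve-like values were below the floor. EPHA2, an ephrin receptor, had 16.8, 89.8 and 122 RPM in primed and 13.8, 22.4 and 32.9 RPM in naïve-like libraries (-1.62 ± 0.30, adjusted p = 0.00363), and the low primed value was that of CMK9. Both genes that rose were Slit receptors. ROBO2 went from 0.882, 4.00 and 7.35 RPM to 7.77, 12.2 and 33 RPM (1.69 ± 0.28, adjusted p = 0.00208), and ROBO1, named after its value was seen, rose by 1.24 ± 0.34.

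Of 7 tested early neural genes 3 fell and 0 rose (42.9% lower, against 9.74% of all genes). PTN (pleiotrophin, a heparin-binding growth factor) fell from 30.6, 57.2 and 225 RPM to 4.50, 13.4 and 32.1 RPM (-2.56 ± 0.48, adjusted p = 0.00382). BCHE (butyrylcholinesterase) fell from 20.9, 37.3 and 48 RPM to 0.346, 2.63 and 16.3 RPM without overlap (-3.0 ± 0.43, adjusted p = 0.000789). NES (nestin), a neural progenitor filament, fell by less (-0.78 ± 0.23, adjusted p = 0.0296), in 6 of 7 lines, and its call was lost under 7 of 17 alternatives.

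Of 3 tested genes of the BMP group 2 fell (66.7% lower, against 9.74% of all genes), both of them ID genes. ID3, a helix-loop-helix inhibitor and direct BMP target, had 272, 428 and 949.9 RPM in primed and 47.3, 82.9 and 120.5 RPM in naïve-like libraries. All 7 naïve-like values were below all primed ones (-2.38 ± 0.18, adjusted p = 2.61e-05). ID4 fell from 60.1, 95.2 and 185 RPM to 2.77, 19.9 and 34.4 RPM (-2.51 ± 0.38, adjusted p = 0.00106). The third tested gene of the group, MSX1, did not pass, and was higher after conversion in 5 lines and lower in iPS-L3 and iPS-L6.

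Some Wnt ligands fell too. WNT2B (-2.08 ± 0.41), WNT4 (-1.87 ± 0.53) and WNT5A (-1.20 ± 0.24) were the 3 of 5 tested ligands and receptors that passed (60% lower, against 9.74% of all genes). WNT5A, a ligand of the non-canonical pathway, went from 16.6, 34.7 and 45.6 RPM to 3.12, 14.6 and 32 RPM, lower in all 7 lines. WNT2B and WNT4 were low before, with medians of 8.69 and 8.14 RPM, and had medians of 1.07 and 0.876 RPM after. The call of WNT4 was lost under 7 of 16 alternatives. SP8, above, was the single tested gene on the list of Wnt targets.

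Of 4 tested genes of FGF and ERK output 1 fell and 1 rose (25% each, against 9.74% lower and 11.5% higher of all genes). ETV5, an ETS factor induced by ERK, fell in 6 of 7 lines from a median of 44.2 to 14 RPM (-1.43 ± 0.32, adjusted p = 0.00973), whereas ETV1, of the same ETS family, rose by 0.58 ± 0.16. Of 5 tested Notch genes 2 (40%, against 9.74% of all genes) fell, LFNG, a glycosyltransferase acting on Notch, and the target HES1 (-1.19 ± 0.27 and -1.43 ± 0.37). Of 4 tested genes of the LIF pathway 1 passed (25% lower, against 9.74% of all genes). It was JAK1, the kinase that relays LIF receptor signals, which fell in all 7 lines (-0.79 ± 0.16, adjusted p = 0.00625), from a median of 58.1 to 32.7 RPM. CISH, a feedback target of STAT5, did not pass (1.14 ± 0.38, adjusted p = 0.054). Of 7 tested cAMP targets VGF fell from 12.8, 16.3 and 22.0 RPM to 0.692, 3.50 and 6.04 RPM without overlap (-2.19 ± 0.36, adjusted p = 0.00186), and PDE4B, a cAMP phosphodiesterase, rose by 0.64 ± 0.17. Each was 14.3% of the group, beside 9.74% lower and 11.5% higher over all genes.

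The YAP group held genes that were lower after conversion in every line but CMK9. F3 (tissue factor) and WWTR1 (TAZ, the paralogue of YAP) fell (-2.32 ± 0.51 and -1.03 ± 0.33), each being lower in 6 lines and higher in CMK9. F3 went from 3.88 to 10.5 RPM in CMK9 and, in the other lines, from 6.47 to 82.5 RPM in primed cells to 0.808 to 13.1 RPM after conversion. WWTR1 went from 19.5 to 43.2 RPM in CMK9 and from 38.8 to 156.3 RPM to 14.9 to 67.5 RPM in the other lines. The call of WWTR1 was lost under 11 of 17 alternatives.

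With all 7 lines, 2 of 9 tested Hippo-YAP genes fell and 2 of 9 Nodal and TGF-β genes fell (22.2% each, against 9.74% of all genes). With CMK9 left out these counts were 7 and 5, and 303 of all 2691 genes were called lower in that fit. CCN2, AMOTL2, SKIL and TGFB2, named after their values were seen, did not pass with all lines (adjusted p = 0.0636, 0.0556, 0.225 and 0.241). CCN2 (CTGF), a YAP and TGF-β target, had 244 to 1179.5 RPM in 6 primed libraries and 31.2 to 245 RPM in their naïve-like partners, but went from 29.9 to 288 RPM in CMK9. AMOTL2, which binds YAP, went from 34.6 to 109.7 RPM in CMK9 and had changes of -1.83 to -0.98 in the other 6 lines. Primed CMK9 was the lowest of the primed libraries for CCN2, AMOTL2, SKIL and TGFB2. The primed CMK9 library was also the deepest of all, with 7986000 reads against 1158000 in its naïve-like partner, and the part of depth was not tested. LEFTY2, a Nodal antagonist, was at 31.4 to 109 RPM in primed iPSC lines and 2.46 to 3.94 RPM in primed ESC lines, and at 10.3 RPM or below in all naïve-like libraries (-2.11 ± 0.57, adjusted p = 0.0222), and its call was lost under 7 of 16 alternatives.

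Few lineage markers outside the epiblast reached the level needed for testing, and those of endoderm, liver, blood vessels, trophectoderm and amnion that passed fell. AFP, of visceral endoderm and foetal liver, had 3.10, 45.3 and 55.8 RPM in primed and 0, 9.44 and 33.2 RPM in naïve-like libraries (-1.74 ± 0.55, adjusted p = 0.0431), although the call was lost under 12 of 17 alternatives. ALB, the defining hepatic marker, was at most 2.17 RPM in any of the 14 libraries. KDR (-1.82 ± 0.46), a receptor of endothelial precursors, and VTCN1 (-1.71 ± 0.46), a marker of trophectoderm and amnion, fell in 6 of 7 lines, from levels of up to 47.7 and 87 RPM in primed libraries. LAMB1, a laminin on the endoderm list, was at 54.1 to 269.3 RPM in primed and 84.2 to 159.1 RPM in naïve-like libraries and did not pass. PTPRC, which marks blood cells, did not exceed 0.346 RPM. In the homeobox and patterning group, 2 of 8 tested genes passed. TBX15 fell to 1.60 RPM or below in all lines (-2.50 ± 0.40, adjusted p = 0.00164), and NKX6-1 rose in 6 of 7 (2.01 ± 0.64, adjusted p = 0.0438), mostly in the iPSC lines, where it reached 5.70 to 28.6 RPM. The call of NKX6-1 was lost under 9 of 16 alternatives.

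Proliferation and stress groups held few genes past the threshold. Of 17 tested cell division genes KIF15 and RPA2 rose (0.70 ± 0.18 and 0.66 ± 0.20) and CENPF fell (-0.60 ± 0.17), and the median was -0.06. These were 11.8% higher and 5.88% lower, beside 11.5% and 9.74% of all genes. CCND3, a D-type cyclin, rose from a median of 14.2 to 38.0 RPM (1.09 ± 0.26, adjusted p = 0.0123). The p53 targets GADD45A and PLK3 fell (-1.52 ± 0.32 and -1.24 ± 0.38), 22.2% of those tested against 9.74% of all genes. The other 7 tested did not pass, and the group's median was -0.01. The calls of CENPF and PLK3 were lost under 8 of 17 and 7 of 16 alternatives. PDIA4 was the 1 of 6 tested genes of ATF4 and unfolded protein stress that fell (-0.56 ± 0.12), and GCLM the 1 of 12 antioxidant genes (-0.60 ± 0.14). Their shares were 16.7% and 8.33% lower, beside 9.74% of all genes. PRDX1, the antioxidant gene with the highest level, did not pass (-0.15 ± 0.06, adjusted p = 0.0928). The hypoxia group split, with AK4 and HILPDA rising (2.18 and 0.58) and VEGFA among the falling genes (-0.60), its call lost under 13 of 17 alternatives.

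Of 38 tested solute carriers 7 rose and 3 fell (18.4% and 7.89%, against 11.5% and 9.74% of all genes), with a median of 0.23. Beside SLC4A4 these included SLC16A10, an aromatic amino acid transporter (1.27 ± 0.20), and SLC18B1 (2.18 ± 0.46). Of 22 Polycomb and histone modifier genes PHC2, a Polycomb subunit, fell from 58.4, 83.2 and 179 RPM to 15.2, 33.6 and 50.9 RPM without overlap (-1.67 ± 0.27, adjusted p = 0.00186). RBBP4, a histone chaperone, rose slightly in all 7 lines (0.45 ± 0.08), and ARID1A fell (-0.53 ± 0.15). That group was thus 4.55% higher and 9.09% lower, beside 11.5% and 9.74% of all genes. Of 46 tested ZNF genes 5 rose (10.9%, close to the 11.5% of all genes), ZNF593, ZNF451 and ZNF775 among them (0.87, 0.64 and 1.51), and ZNF436 fell (-1.88 ± 0.39). IFNGR1, of the interferon group, fell in all 7 lines (-0.76 ± 0.21). KALRN (-2.23 ± 0.33), SYNJ2 (-2.40 ± 0.32), FAM43A (-2.83 ± 0.32) and TNFRSF1B, a TNF receptor (-2.20 ± 0.35), completed the 15 largest shared falls.

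**Figure D4:**
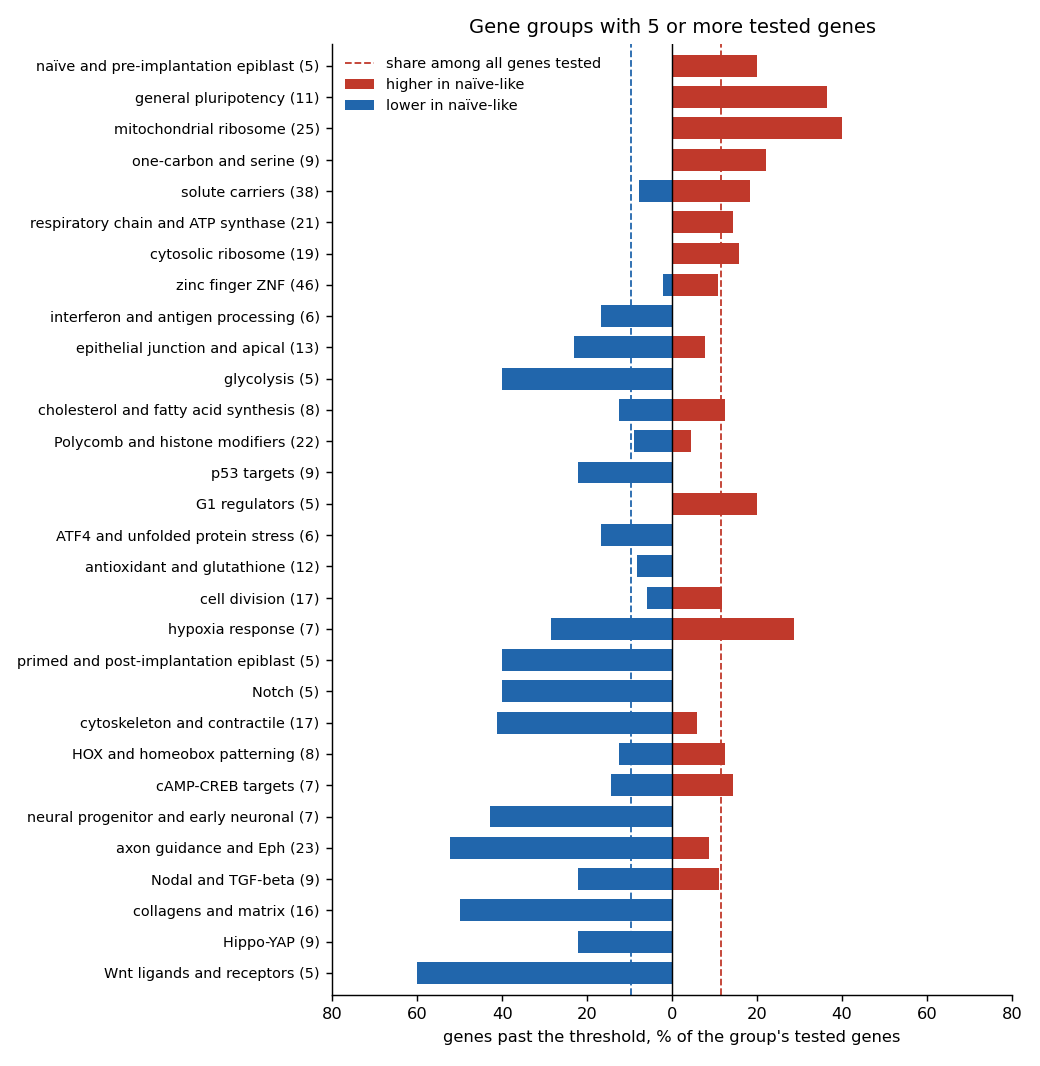
Share of tested genes past the threshold in each gene group with 5 or more tested genes (number in brackets), higher in naïve-like cells to the right in red and lower to the left in blue, ordered by median change, with the shares among all 2691 genes (11.5% and 9.74%) as dashed lines. Mitochondrial ribosome genes reach 40.0% on the right, and matrix and guidance genes 50% and 52.2% on the left.

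The 7 lines did not travel equally far. For each line, genes were called in the other 6 lines, and its libraries were then placed on a scale on which 0 is the primed and 1 the naïve-like mean of those 6 lines. The primed libraries of the 4 iPSC lines lay between -0.10 and 0.01 and their naïve-like libraries between 0.83 and 1.03. CMK6 moved from 0.12 to 1.15, and TRSK from 0.21 to 0.87. CMK9 moved from 0.49 to 0.75, the shortest step of the 7. Its primed library lay midway, and its naïve-like library was the farthest from 1 on the lower side.

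**Figure D5:**
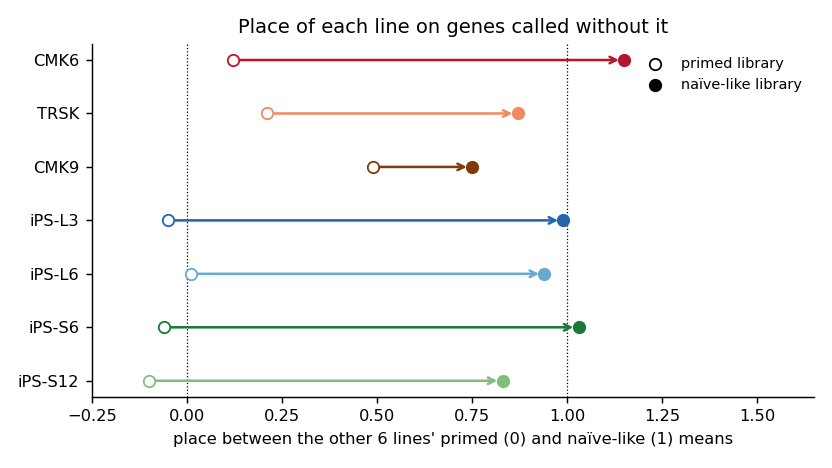
Place of each line's primed (open circle) and naïve-like (filled circle) library on a scale from the primed (0) to the naïve-like (1) mean of the other 6 lines, computed over the 370 to 638 genes called without that line. All 7 arrows point to the right, and that of CMK9 spans 0.26 against 0.65 to 1.09 in the others.

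CMK9 shared the changes of the other lines least often. Of the genes called higher without CMK9, 76.4% were also higher in CMK9 (median change 0.35), whereas of those called lower 60.1% were lower there (median -0.19). Over all genes 52.4% were higher and 47.2% lower in CMK9. In TRSK the shares were 88.4% and 75.2%, beside 61.6% and 37.8% of all genes higher and lower there. In the other 5 lines they were 82.7% to 95.3% and 91.5% to 95.4%, beside 47.8% to 56.1% and 43.7% to 52% of all genes. No difference between lines was tested. Leaving out CMK9 raised the number of called genes to 638, and leaving out iPS-L3, whose median change among called rises was the largest (0.87), lowered it to 370. Without both CMK6 and CMK9, an alternative chosen after seeing the data, 585 genes were called, of which 453 were also called with all lines.

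Some genes moved by more than 2 in 1 line and stayed within 1 in the other 6. CMK6 had the most. BRDT, a testis-specific bromodomain protein, was at 19.7 RPM in naïve-like CMK6 and at most 0.877 RPM in the other 13 libraries, and KHDC3L was at 31.9 RPM there and at most 0.292 RPM elsewhere. SMPDL3A rose in that line from 3.38 to 21.8 RPM, and CACNA2D1 and GCNT2 went from 21.2 to 2.08 and from 68.3 to 11.4 RPM. In CMK9, IFI16, an interferon-inducible DNA sensor, went from 0.25 to 13 RPM, SLC30A1 from 15.0 to 68.2 RPM and RING1 from 17.7 to 3.45 RPM. In the other lines there were 1 to 3 such genes each. Among them were CEP63 and ZMYM6 in TRSK, TBCCD1 and NIPAL3 in iPS-L3, RPL39L and TAF1A in iPS-L6, AHCYL2 in iPS-S6, and F11R and CHST2 in iPS-S12. CHST2, for example, went from 90.8 to 20.5 RPM in iPS-S12. With 1 library per line and state these values have no replicate, and the iPS-L6 libraries, at 861000 and 902000 reads, were the shallowest.

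Whether ESC and iPSC lines responded differently was tested as an interaction. No gene passed (0 of 2691 by limma, 152 at an unadjusted p under 0.05), and the smallest adjusted p was 0.191, reached by IL17RD and IL1RAP. IL17RD, an inhibitor of FGF receptor signalling, went from 44.9, 69.7 and 22.8 RPM to 73.1, 73.1 and 51.8 RPM in CMK6, TRSK and CMK9. In the iPSC lines, in the order L3, L6, S6 and S12, it went from 90.0, 119.7, 126 and 113 RPM to 58.9, 35.5, 40.9 and 36.8 RPM. Each ESC line thus went up, TRSK by only 0.07, and each iPSC line down, a difference of 2.02 on the log2 scale. IL1RAP, a co-receptor of interleukin-1, reached 130.1 to 205 RPM in naïve-like iPSC lines and 18.7 to 76.9 RPM in naïve-like ESC lines. ASNS, FBLN2 and KLF3 had the next smallest p (adjusted p = 0.375 each, differences of 1.16, 1.98 and 1.29, ESC minus iPSC). A p above the threshold with 3 and 4 lines does not show that the origins respond alike.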

How the data were processed

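The authors prepared SC3-seq libraries from 1 ng of total RNA and sequenced them as 75 bp single reads. Per the labels' processing notes the tools were cutadapt 1.3, TopHat 1.4.1 and Cufflinks 2.2.0, with an unstranded library type, so overlapping and antisense genes cannot be told apart. The deposited values are RPM, 1 column per library, and 86.7% to 92.5% of values above 0 came out as whole reads (within 0.02 reads), too few for a count test. An incomplete row was dropped (1 row). Of the 8415 gene IDs 5564 matched RefSeq, which gave 980 symbols. Its assembly differs from the deposited build, so no coordinates are given.

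Values were taken as log2(RPM + 1), a scale that understates changes of low genes, with genes above 4 in at least 1 of 14 libraries kept. limma 3.58.1 in R 4.3.3 used a mean-variance trend, the line as a block, and Benjamini-Hochberg adjustment over 2691 genes at 0.05, and errors are its standard errors. The labels name the line of each library, so the same 7 lines pair the states. Deviations from the state means correlated at 0.202 on average within lines (0.044 to 0.431). The mean of -0.033 between lines follows largely from subtracting the state means. For 3 of 7 naïve-like libraries the most similar primed library was that of the same line, and for 6 it was of the same origin (ESC or iPSC). On simulated data 100 of 100 genes changed by 2 and 87 of 100 changed by 1 were recovered, with 8 false calls among 2691 genes. The changed genes were drawn only from those with higher mean levels, and all genes were given the same spread. Recovery of low genes or of genes with a wide spread is therefore not known.

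Named genes were the 15 largest shared rises and 15 largest shared falls, up to 4 members of each list by adjusted p (or the highest member where fewer than 2 passed), genes particular to 1 line, the 5 smallest interaction p-values, and POU5F1, SOX2, NES, LIN28A and MYCL; others are said to be named after their values were seen, or are marker genes of the label check. Members and lists were chosen with earlier results of these data known. Some genes and 1 group that met these rules are not reported here. Sequences are not shown.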

Additional observations from a re-analysis of the deposited data

Results flagged for a closer look

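In groups of 7 libraries, a lowest or highest value was singled out when its gap to the next value took a larger part of the whole range on the log2 scale than Dixon's 95% critical value allows for 7 values. Of 258 groups 29 were singled out, and 1 in 20 would be 12.9. Some genes in these groups, BRDT, KHDC3L and CHST2 among them, were picked because they moved in 1 line alone. An outlying library was thus partly built in, and the count of 29 cannot be weighed against 12.9. The share of the range is given for each value singled out.

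Naïve-like CMK6 and primed CMK9 had 8 each. Naïve-like CMK6 was highest for BRDT (0.894), KHDC3L (0.927) and CCND3 (0.583), and lowest for AFP (0.582), CAV1 (0.572), GCNT2 (0.593), ID4 (0.692) and SOX2 (0.619). Primed CMK9 was highest for AIM1 (0.635), BRDT (1.000, at 0.877 RPM with the others at 0), ID3 (0.600) and ZNF775 (0.583), and lowest for EPHA2 (0.678), ETV5 (0.582), SERTAD4 (0.790) and SLC30A1 (0.669).

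Primed iPS-S12 was lowest for AFP (0.760), POU5F1 (0.716, at 32.8 RPM) and SH3BGRL2 (0.626), and highest for CHST2 (0.651). Primed TRSK was lowest for ELOVL5 (0.680) and highest for RPS18 (0.642), and naïve-like TRSK highest for MRPL2 (0.591) and RPL39L (0.713). Primed iPS-L6 was lowest for RPL39L (0.582) and TAF1A (0.581). The other 3 were HILPDA, lowest in primed CMK6 (0.699), NKX6-1, highest in primed iPS-L3 (0.571), and RPA2, lowest in naïve-like iPS-S12 (0.797).

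IL17RD stood out between groups of lines, a difference of 2.02 (adjusted p = 0.191 by limma, which does not pass). It was higher in 3 of 3 ESC lines, though by only 0.07 in TRSK, and lower in 4 of 4 iPSC lines.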

How the results depend on the processing

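Each line has 1 library per state, so the fitted change is the same with or without the block and no direction could change. Without the line as a block 475 genes differed (262 higher, 213 lower), and with libraries paired by library number 498 did. The number of called genes was 538 with a pseudocount of 0.1, 389 of 5743 without a filter, 456 of 2071 with a filter of 7 libraries, 588 after quantile scaling, 570 after median centring, 451 without the trend, 722 with 21 libraries in the fit and 585 without CMK6 and CMK9. Leaving out 1 line gave 370 (without iPS-L3) to 638 (without CMK9) called genes, 193 to 335 higher (193 without iPS-L3, 205 without iPS-S6) and 175 to 303 lower. Every shared call kept its direction, and the interaction gave 0 calls under each alternative tried. Of 103 named genes that passed, 68 kept the call under each alternative and 0 reversed. Under median centring 46.1% of calls were higher, against 54.1%. Depth limited genes under about 3 reads, and the 8415 genes are part of the transcriptome.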

Other observations

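Outside the lists above, 2 further groups were put together after values of some of their members had been seen, and they are given as counts with no test. Among factors that assemble ribosomes in the nucleolus, 13 of 31 tested genes rose and 0 fell (41.9% higher, against 11.5% of all genes), with a median change of 0.42 against 0.06 over all genes, and 29 of 31 had a positive change. RPF2, which helps to place 5S RNA in the large subunit, went from 44.3 to 88.3 RPM in primed libraries to 104 to 148.5 RPM in naïve-like ones, without overlap (1.08 ± 0.12, adjusted p = 0.000145 by limma). The summed level of the group was 1370.5 to 1670.4 RPM in primed and 1937 to 2179.9 RPM in naïve-like libraries. With 1 line left out, 6 to 12 of its genes passed.

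Among genes for mitochondrial transcription, tRNA charging, import and assembly, 13 of 34 tested rose and 0 fell (38.2% higher, against 11.5% of all genes), with a median of 0.41 against 0.06 over all genes. MRS2, the magnesium channel of the inner mitochondrial membrane, rose in all 7 lines without overlap (1.85 ± 0.18, adjusted p = 7.18e-05), TFB2M, a mitochondrial transcription factor, rose by 1.17 ± 0.29, and PARS2, the mitochondrial prolyl-tRNA synthetase, by 1.03 ± 0.27.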
